A study of Mus musculus with 2 samples.

Results

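Transcript levels of 10 genes that mark the hormone-producing cells of the gut were compared in sorted mouse intestinal cells, with 1 wild-type library and 1 Srcap-knockout library. The members were Gip, Cck, Sct, Ghrl, Gcg, Pyy, Nts, Sst, Tac1 and Tph1, chosen by symbol, and all 10 were among the 17840 genes of the deposited tables. Of these, 4 (Gip, Cck, Sct and Ghrl) were treated as hormones of the proximal gut and 3 (Gcg, Pyy and Nts) as hormones of the distal gut. The wild-type library came from Srcap+/+; Lgr5-Cre+ mice and the knockout library from Srcap flox/flox; Lgr5-Cre+ mice given tamoxifen, and the labels do not say whether the controls received tamoxifen too. Both therefore carried the Cre, which acts in Lgr5-expressing stem cells. Crypts came from mice with a GFP reporter of Lgr5, and dispersed crypt cells were sorted by GFP intensity and used without culture. The labels do not state the age and number of the mice, the stretch of intestine or the number of cells. SRCAP is the ATPase of a remodelling complex that places the histone variant H2A.Z in nucleosomes, and the comparison asks which transcripts differed in the library labelled Srcap knockout.

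Enteroendocrine cells are scattered secretory cells of the gut lining that arise from the same crypt stem cells as absorptive cells. Each releases peptide hormones, or serotonin, into the circulation or onto nearby nerves, and the mixture changes along the gut. K cells, which make GIP, I cells, which make cholecystokinin, and S cells, which make secretin, are known mainly from the duodenum and jejunum, and ghrelin cells from the stomach and upper intestine. L cells, which make glucagon-like peptides and peptide YY, and N cells, which make neurotensin, become more frequent towards the ileum. Enterochromaffin cells make serotonin and tachykinins.

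There were no replicates, so each difference is between these 2 libraries, no test was possible and the spread between mice is unknown. FPKM, the unit of the tables, divides mapped fragments by transcript length in kilobases and by library size in units of 1000000, so levels can be compared between genes. Srcap was at 20.4 FPKM in wild-type and 11.3 FPKM in knockout cells, so 55.7% of the wild-type signal remained and its log2 ratio of -0.79 did not reach 2-fold. A value for the whole gene also counts exons outside a deleted part, and does not show how many cells had lost it. Lgr5 was at only 5.9 and 2.17 FPKM, while the Paneth cell lysozyme gene Lyz1 was at 5797 and 3191 FPKM, so each sort held more than stem cells. The Y-linked gene Eif2s3y was at 0.94 and 15.2 FPKM, and sex and genotype cannot be told apart with 1 library each. In such bulk samples fewer endocrine cells and less hormone RNA per cell cannot be told apart either. The steps between low values fitted best at about 17100000 reads assigned to genes in each library, among a limited range of depths tried. That range did not reach the stated average of 59 (in units of 1000000) reads per sample. The read counts and 95% intervals below derive from the estimate of 17100000 reads, would change with it, and cover counting error only.

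Gip and Ghrl were the 2 of 10 members that lay at least 2-fold below the wild-type level in the knockout library, and 0 lay at least 2-fold above it. The rule was applied to log2 ratios after adding 1 FPKM to both values, for genes whose larger value was at least 1 FPKM. Of the 11784 genes that passed this filter, 0.416% were at least 2-fold lower and 2.61% at least 2-fold higher. All 10 members passed. In 7 of the 10 the knockout value was below the wild-type value, by any amount, as in 46.4% of all genes tested. The median log2 ratio of the 10 members was -0.39, and that of all genes tested was 0.02, with the 5th and 95th percentiles at -0.35 and 0.76. Gip, Ghrl, Tac1, Cck and Tph1 lay below that 5th percentile, and Sct, Gcg, Pyy, Nts and Sst lay between the percentiles.

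**Figure D1:**
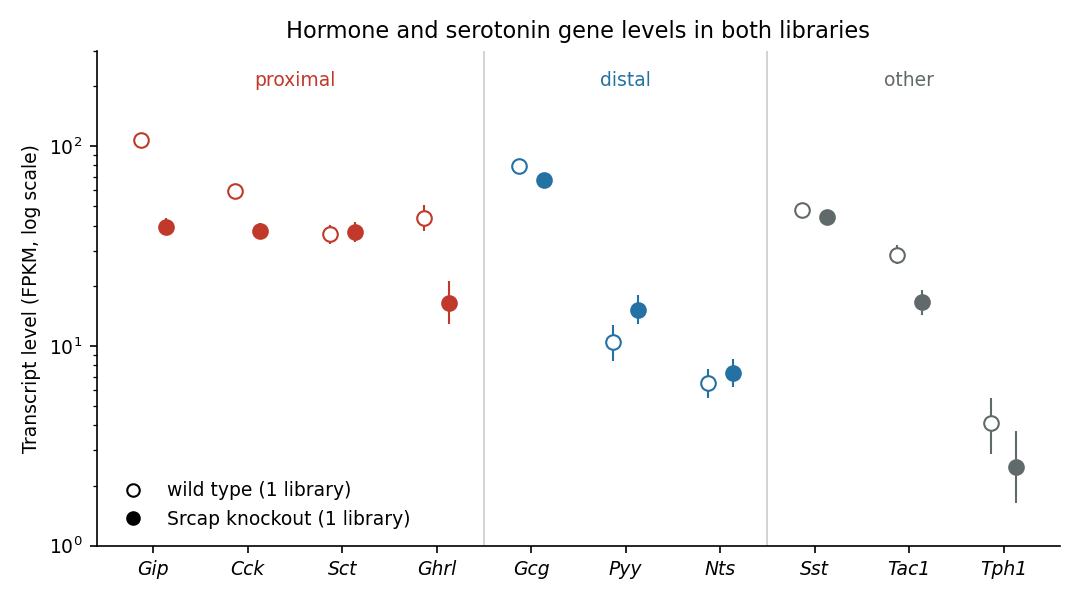
FPKM (log axis) of each member in the wild-type library (open circles) and the Srcap-knockout library (filled circles), with bars for the 95% Poisson interval of the estimated reads. Gip and Ghrl show the widest gaps, from 106.69 to 39.53 and from 43.77 to 16.47 FPKM, and Sct the smallest, from 36.13 to 37.24 FPKM.

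Gip, which encodes the incretin that raises insulin release after a meal, was the most abundant of the members in the wild-type library. It was at 106.69 FPKM in wild-type and 39.53 FPKM in knockout cells, or about 1189 and 441 reads. The knockout level was thus 37.1% of the wild-type level, or 2.70-fold lower (interval 2.42 to 3.01). Its log2 ratio with the pseudocount was -1.41, and only 19 of the 11784 genes tested had a lower one. Gip (Entrez 14607) lies on chromosome 11, from 96024532 to 96030831 in GRCm38.

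Ghrl encodes ghrelin, the peptide that stimulates appetite and the release of growth hormone. It was at 43.77 FPKM in wild-type and 16.47 FPKM in knockout cells, and 2.66-fold lower in the latter (interval 1.98 to 3.55). The interval is wider than for Gip because the shortest Ghrl transcript, used for the estimate, gives about 177 and 67 reads. That transcript has 237 nucleotides, and a longer one would give more reads and a narrower interval. Its log2 ratio was -1.36, with 22 genes lower. Ghrl (Entrez 58991) lies on chromosome 6, from 113716119 to 113719911. Mboat4, which encodes the acyltransferase that activates ghrelin, was under 1 FPKM in both libraries, at 0.58 and 0.73 FPKM.

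The start regions of these 2 genes, the members past 2-fold, are shown from RefSeq (GRCm38.p6), each with 250 bases before the transcription start and the first 20 transcribed bases, 5′ to 3′ in the direction of the gene. Capitals mark matches to CANNTG, the E-box core bound by basic helix-loop-helix factors such as those of endocrine cells, and to GATAA, the core bound by GATA factors (in either orientation). The Gip window is chr11:96024295-96024564 on the plus strand and the Ghrl window is chr6:113719892-113720161 on the minus strand.
Gip: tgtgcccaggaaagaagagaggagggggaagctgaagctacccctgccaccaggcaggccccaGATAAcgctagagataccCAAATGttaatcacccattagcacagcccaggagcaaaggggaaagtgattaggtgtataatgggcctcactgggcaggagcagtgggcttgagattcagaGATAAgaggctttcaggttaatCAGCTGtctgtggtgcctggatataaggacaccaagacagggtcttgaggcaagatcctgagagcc
Ghrl: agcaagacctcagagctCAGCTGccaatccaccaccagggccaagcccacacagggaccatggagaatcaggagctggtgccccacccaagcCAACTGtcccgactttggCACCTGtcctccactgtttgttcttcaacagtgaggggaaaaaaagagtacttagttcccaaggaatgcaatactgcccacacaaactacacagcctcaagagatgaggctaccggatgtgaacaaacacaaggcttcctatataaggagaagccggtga
The Gip window holds 2 E-box cores, from -169 to -164 and from -46 to -41 relative to the start, and 2 GATAA cores, from -187 to -183 and from -68 to -64. The Ghrl window holds 3 E-box cores, the nearest from -140 to -135, and no GATAA. Of 32851 RefSeq windows cut in this way, 68.9% hold CANNTG and 23.8% hold GATAA. Among the 10 members, 9 hold CANNTG and 4 hold GATAA, the latter being Gip, Cck, Nts and Tac1. TATAAA is present in 2 of the members (Sct and Gcg) and in 12.9% of all windows, and CACCC in 8 of the members and 54.3% of all windows, each in either orientation. None of these matches overlapped a CANNTG or GATAA match in the 2 windows shown, and a match of letters does not show that a factor binds there.

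The other 2 proximal hormones differed from each other. Cck encodes cholecystokinin, which empties the gallbladder and stimulates pancreatic enzyme secretion. It was at 59.31 and 37.48 FPKM, so the knockout level was 63.2% of the wild-type level (1.58-fold lower, interval 1.40 to 1.79). Its log2 ratio of -0.65 did not reach 2-fold, and 146 genes were lower. An annotated gene, Gm38661, overlaps Cck on chromosome 9 (121489824 to 121495694), and as no source used here says whether strand was counted, reads of the pair cannot be told apart. Sct encodes secretin, which drives bicarbonate secretion by the pancreas. It was nearly equal, at 36.13 and 37.24 FPKM, a ratio of 1.03 (interval 0.878 to 1.21). Sct was the only 1 of the 4 proximal members with a log2 ratio above 0, at 0.04.

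The distal hormones lay close to equality or somewhat higher in the knockout library, and 0 of 3 reached 2-fold. Gcg encodes proglucagon, which intestinal L cells cut into glucagon-like peptides. It was at 79.63 and 67.64 FPKM, or 84.9% of the wild-type level (ratio interval 0.787 to 0.916). Pyy encodes peptide YY, a hormone of the same L cells that slows gut transit and reduces food intake. It was at 10.43 and 15.19 FPKM, a ratio of 1.46 (interval 1.12 to 1.91), the highest of the 10 members. Gcg and Pyy, both known as L cell products, thus lay on opposite sides of equality, and the counting intervals of their ratios did not overlap. Nts encodes neurotensin, released on fat uptake, and was at 6.51 and 7.32 FPKM, a ratio of 1.12 (interval 0.887 to 1.42).

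The start region of Pyy, the distal member with the widest difference, is shown in the same form for comparison with Gip and Ghrl (chr11:102107813-102108082, minus strand).
Pyy: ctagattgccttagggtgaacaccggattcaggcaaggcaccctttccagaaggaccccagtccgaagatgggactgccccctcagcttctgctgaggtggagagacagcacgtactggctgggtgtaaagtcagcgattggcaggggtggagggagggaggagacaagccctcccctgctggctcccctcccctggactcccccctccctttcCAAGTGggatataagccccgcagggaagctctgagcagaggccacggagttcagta
It holds 1 E-box core, from -36 to -31, no GATAA, and 4 matches to CACCC in either orientation.

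**Figure D2:**
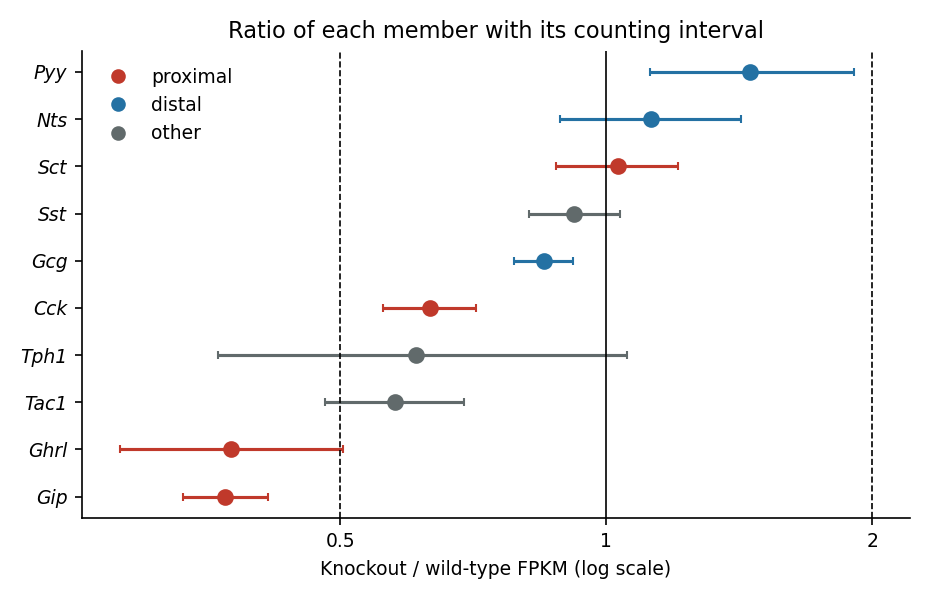
Ratio of knockout to wild-type FPKM (log axis, no pseudocount) for each member, sorted, with bars for the 95% interval of counting error; the solid line marks equality and the dashed lines 2-fold. Gip (0.371) and Ghrl (0.376) sit lowest and Pyy (1.46) highest, and the intervals of Sct, Nts, Sst and Tph1 include equality. The Tph1 interval rests on its shortest transcript and would be narrower with a longer one.

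The remaining members are less tied to a region. Sst encodes somatostatin, made by D cells and a brake on most other gut hormones. It was at 47.82 and 43.95 FPKM, a ratio of 0.919 whose interval, 0.817 to 1.04, includes equality. Tac1 encodes the precursor of the tachykinins substance P and neurokinin A. It was at 28.65 and 16.52 FPKM, 1.73-fold lower in the knockout library (interval 1.45 to 2.08), with a log2 ratio of -0.76 and 100 genes lower. Tph1, the rate-limiting enzyme of serotonin synthesis outside the brain, was the least abundant member at 4.09 and 2.49 FPKM. Its ratio of 0.609 had an interval of 0.363 to 1.06, which includes equality. The interval rests on about 40 and 25 reads, estimated from its shortest transcript, of 578 nucleotides. A longer transcript would give more reads and a narrower interval, so whether equality lies within it is not settled. Tac1 and Tph1, both known from enterochromaffin cells, thus had lower values in the knockout library without reaching 2-fold. Of the pair, only the Tac1 interval excluded equality.

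Set against each other, the proximal hormones were lower relative to the distal ones in the knockout library. The median log2 ratio was -1.003 for the 4 proximal and 0.15 for the 3 distal members, a difference of -1.15. Ranges of the log2 ratios overlapped, from -1.41 to 0.04 for the proximal and from -0.23 to 0.50 for the distal members, because of Sct. Summed over its members, the proximal set was at 246 FPKM in wild-type and 131 FPKM in knockout cells, a ratio of 0.532. For the distal set the sums were 96.6 and 90.2 FPKM, a ratio of 0.934. The quotient of the 2 sums, which no rescaling of a library can alter, was 2.55 for wild-type and 1.45 for knockout cells. Of the 12 pairs of a proximal and a distal member, 11 had a lower quotient in the knockout library, and the exception was Sct to Gcg (0.454 and 0.551). Gip to Gcg went from 1.34 to 0.584, so that Gip was the more abundant of this pair in wild-type cells and Gcg in knockout cells. Gip to Pyy went from 10.2 to 2.60 and Ghrl to Pyy from 4.20 to 1.08. These pairs share members and libraries and are not independent of each other.

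**Figure D3:**
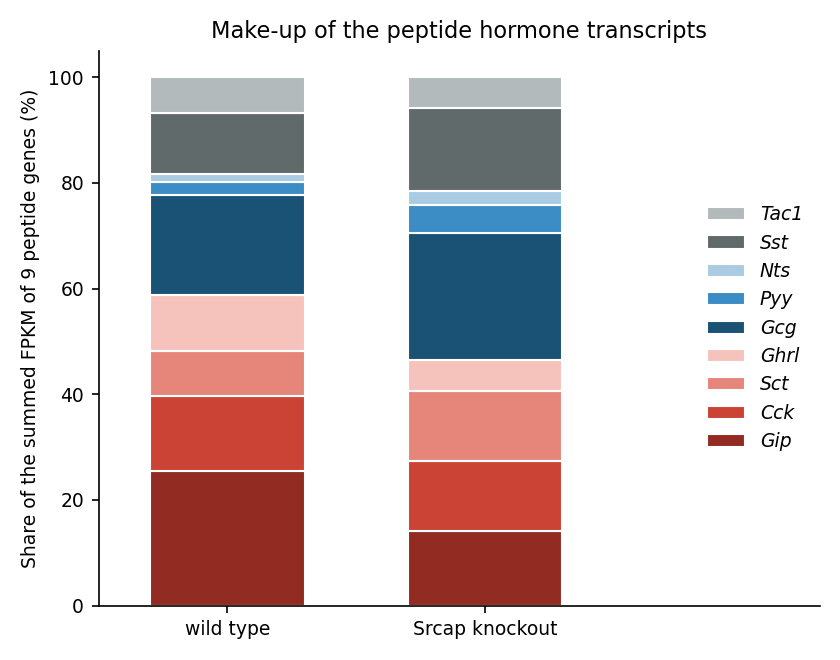
Stacked bars of the share (%) that each of 9 peptide genes (all members but Tph1) took of their summed FPKM in each library, from the bottom proximal (reds), distal (blues), then Sst and Tac1 (greys). The proximal share was 58.7% for wild-type and 46.5% for knockout cells, and the distal share 23.1% and 32.0%.

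The order of abundance differed accordingly. In the wild-type library it was Gip, Gcg, Cck, Sst, Ghrl, Sct, Tac1, Pyy, Nts and Tph1, and counting intervals of neighbours overlapped for Sst and Ghrl, for Ghrl and Sct, and for Nts and Tph1. In the knockout library it was Gcg, Sst, Gip, Cck, Sct, Tac1, Ghrl, Pyy, Nts and Tph1. There the intervals of Sst and Gip, Gip and Cck, Cck and Sct, Tac1 and Ghrl, and Ghrl and Pyy overlapped, and those of the other neighbours did not. In both libraries the intervals of Ghrl and Tph1 rest on short transcripts, and longer ones could remove some overlaps. Of the summed FPKM of the 9 peptide genes (419 and 281 FPKM), Gip held 25.5% in wild-type and 14.1% in knockout cells, and Gcg 19.0% and 24.0%. Ghrl held 10.4% and 5.85%, whereas Sct held 8.62% and 13.2% and Pyy 2.49% and 5.40%.

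**Figure D4:**
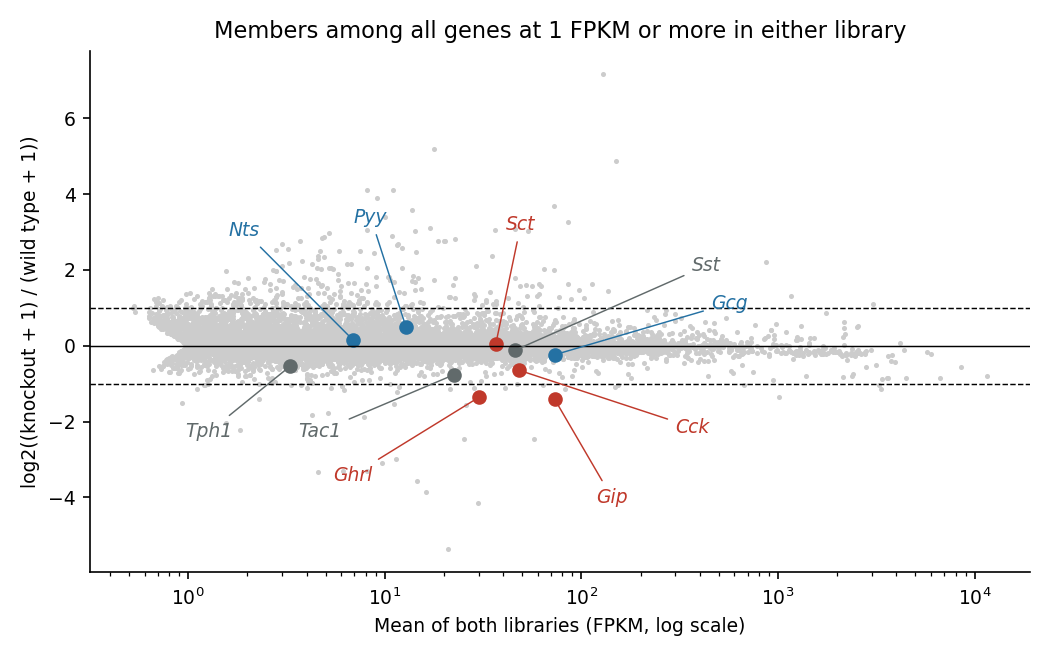
Each grey point is 1 of the 11784 genes that passed the filter, by mean FPKM (log axis) and log2 ratio with a pseudocount of 1 FPKM; members are coloured as proximal (red), distal (blue) or other (grey), and dashed lines mark 2-fold. Gip (-1.41) and Ghrl (-1.36) lie below the lower line and the other 8 members between the lines.

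Of 30 further gut peptide genes, 26 were measured and 10 reached 1 FPKM in either library. At least 2-fold lower by the rule with the pseudocount were 2 (Gal and Cartpt), and 0 were higher. Nmu (1.25 and 0.5 FPKM) and Penk reached 2-fold by plain values only. Gal, which encodes galanin, a neuropeptide that inhibits secretion, was at 16.52 and 6.46 FPKM, 2.56-fold lower. Cartpt, which encodes the CART peptide of neurons and endocrine cells, was at 3.78 and 0.82 FPKM, 4.61-fold lower. Vip, better known from enteric neurons, was at 2.59 and 4.0 FPKM and Penk, the enkephalin precursor, at 2.0 and 1.0 FPKM. The colonic L cell hormone gene Insl5 was at 0.08 and 0 FPKM and the gastric hormone gene Gast at 0.13 FPKM in both.

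Transcripts of the granins, which are components of the hormone granule, were lower together. Granins are acidic proteins that pack peptide hormones into dense-core granules. All 7 of the listed granin genes were below the wild-type level, with a median log2 ratio of -0.72 and 0 past 2-fold with the pseudocount. The endocrine marker Chga was at 95.64 and 57.61 FPKM and Chgb at 79.53 and 51.81 FPKM. Resp18 was at 8.9 and 5.02 and Scg2 at 6.66 and 3.54 FPKM. Pcsk1n, which encodes a convertase inhibitor, was at 5.5 and 2.52 FPKM, 2.18-fold lower by plain values. Gip and Ghrl lay further below the wild-type level than any of the 7, while Cck, at -0.65, lay within their range of -0.88 to -0.45. The transcript of Rest, a repressor of neuronal and granule genes, was at 27.8 and 1.41 FPKM. With the knockout library rescaled so that the granins were equal at their median (a shift of 0.83 on the log2 scale), the log2 ratio was -0.60 for Gip and -0.57 for Ghrl, 0 members were at least 2-fold lower, and Pyy, at 1.29, was at least 2-fold higher. On that scale the signs of Cck, Gcg, Sst, Tac1 and Tph1 turned positive.

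Genes that cut and finish prohormones differed less. Of 10 listed, 7 reached 1 FPKM, 5 of these were below the wild-type level, 0 passed 2-fold, and the median log2 ratio was -0.31. The prohormone convertase Pcsk1 was at 6.28 and 4.09 FPKM and the carboxypeptidase Cpe, which trims the cut ends, at 14.27 and 10.02 FPKM. The amidating enzyme Pam was at 4.35 and 4.81 FPKM, and Furin, a convertase of most cells, at 18.1 and 18.3 FPKM. Of 13 exocytosis genes, 9 reached 1 FPKM, with 5 lower, 4 higher and a median of -0.01. With the pseudocount 0 passed 2-fold, while Snap25, at 2.35 and 1.11 FPKM, was 2.12-fold lower by plain values. The vesicle protein gene Syp was at 4.39 and 2.79 FPKM and Rab3d, a GTPase of secretory granules, at 30.7 and 31.5 FPKM.

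Genes of the serotonin pathway lay on both sides of equality. Of 8 synthesis genes, Tph1 included, 7 reached 1 FPKM and 0 passed 2-fold, with a median of -0.08. Ddc, which makes serotonin from the product of TPH1, was at 37.5 and 32.2 FPKM, and Spr and Qdpr, which make and regenerate the cofactor of TPH1, were at 107.6 and 106.5 and at 90.5 and 87.2 FPKM. Gch1, which starts synthesis of that cofactor, was above the wild-type level, at 5.3 and 7.74 FPKM (ratio 1.46). Tph2, the neuronal counterpart of Tph1, was at 0 and 0.04 FPKM. The vesicular transporter Slc18a1 was at 3.16 and 2.5 FPKM, the serotonin uptake transporter Slc6a4 at 11.5 and 15.8 FPKM and the degrading enzyme Maoa at 64.6 and 77.2 FPKM. Among 7 genes of serotonin storage, uptake and breakdown, 1 was at least 2-fold lower, the organic cation transporter gene Slc22a3, a low-affinity route of uptake, at 15.57 and 0.68 FPKM (22.9-fold).

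Transcription factors of the endocrine lineage were mostly below the wild-type level. Of 23 listed, 13 reached 1 FPKM, of which 10 had a negative log2 ratio and 0 passed 2-fold, with a median of -0.38. Neurog3, which starts endocrine differentiation, was at 7.02 and 5.17 FPKM, Insm1 at 5.36 and 3.31, Nkx2-2 at 3.74 and 2.09, and Fev, known from serotonin-producing cells, at 3.74 and 2.3 FPKM. Mnx1 was the lowest of them relative to the wild-type library, at 8.76 and 4.48 FPKM. Foxa1 and Foxa2, which act in many gut epithelial cells, were at 15.8 and 16.8 and at 5.42 and 3.72 FPKM.

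Receptors for these hormones were scarce. Of 31 listed, 30 were measured and only 3 reached 1 FPKM in either library, with 0 past 2-fold by the rule with the pseudocount. The peptide YY receptor Npy1r was at 1.24 and 2.44 FPKM and Htr4 at 1.14 and 0.94 FPKM. The serotonin-gated channel Htr3a was at 1.89 and 0.83 FPKM, 2.28-fold lower by plain values. Of 25 nutrient sensors and other receptors of endocrine cells, 7 reached 1 FPKM and 0 passed 2-fold. The fatty acid receptor Ffar4 was at 6.12 and 7.39 FPKM and the adrenergic receptor Adra2a at 12.5 and 6.45 FPKM. Among peptidases that degrade peptide hormones, Enpep, also a brush border enzyme of enterocytes, was at 19.4 and 46.2 FPKM, past 2-fold. Dpp4, which inactivates GIP and glucagon-like peptides, was at 14.1 and 15.6 FPKM.

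Among markers of gut region, ileal genes were higher in the knockout library, while genes of the proximal gut went both ways. Of 9 listed ileal genes, 8 reached 1 FPKM, all 8 were above the wild-type level, 4 were at least 2-fold higher, and the summed level was 427 FPKM in wild-type and 1683 FPKM in knockout cells. The bile acid binding protein gene Fabp6 was at 305 and 1426 FPKM, the bile acid exporter genes Slc51a and Slc51b at 31.1 and 94.0 and at 19.9 and 71.9 FPKM, and the uptake transporter Slc10a2 at 0.65 and 2.92 FPKM. Of 9 genes of the proximal gut, 7 reached 1 FPKM, with 3 lower and 4 higher than in the wild-type library and a median log2 ratio of 0.58. The summed levels of the 9 were 184 and 118 FPKM, but Fabp1 alone fell by more than this sum did. Gata4, a transcription factor of the duodenum and jejunum, was at 51.9 and 36.9 FPKM and Fabp1 at 97.8 and 16.8 FPKM (5.82-fold lower). In the opposite direction, the iron exporter gene Slc40a1 was at 2.09 and 5.83 FPKM and Rbp2 at 27.4 and 49.9 FPKM. Enterocyte genes were higher as well, 7 of 8 with 4 at least 2-fold, with Sis, the sucrase-isomaltase gene, at 6.5 and 18.7 FPKM, and several ileal and proximal markers are enterocyte genes. The part of region and of enterocyte content in the hormone differences was not tested.

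**Figure D5:**
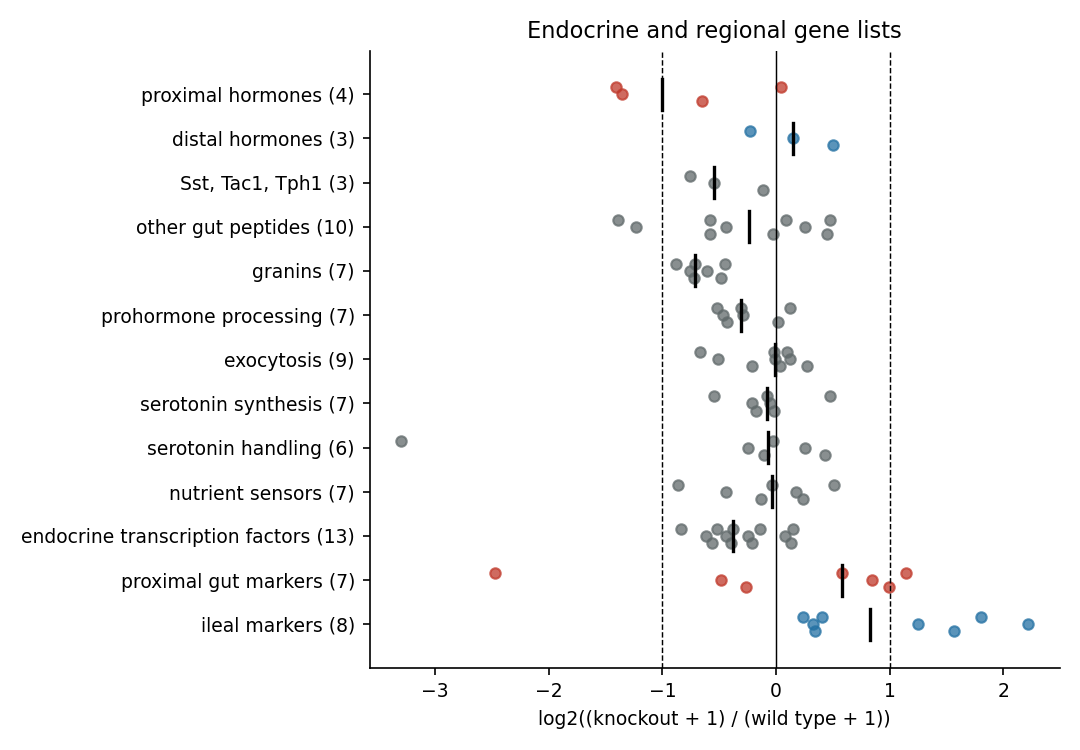
log2 ratio (pseudocount 1 FPKM) of each listed gene that passed the filter, by list, with the number of such genes in brackets; black bars are medians and dashed lines mark 2-fold. The granins all lie left of 0 (median -0.72) and the ileal markers all right of it (median 0.83), while proximal gut markers lie on both sides.

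Other cells that make these peptides were looked for with their own markers. The 4 measured of 7 listed pancreatic islet genes were below 1 FPKM, with Ins1 and Slc30a8 at 0 in both libraries and a summed level of 0.77 and 0.44 FPKM. Most of this sum was Iapp, at 0.72 and 0.33 FPKM, which was also listed among the gut peptides. The part of islet cells in the Gcg, Sst and Pyy values was not tested. Gastric genes were also near 0, at 0.99 and 0.79 FPKM over 5 measured genes, with Gkn2 at 0 in both. Of 12 enteric neuron genes, 8 reached 1 FPKM and 7 of these were below the wild-type level, with summed levels of 34.2 and 21.6 FPKM. Highest were Uchl1, at 10.2 and 5.03 FPKM, and Prph, at 5.77 and 2.6 FPKM. Several of these genes are also known from endocrine cells. Their part in the Tac1 difference was not tested. Of the mast cell genes, which matter because mast cells also use Tph1, Ms4a2 was at 0 in both, Cpa3 at 0 and 0.12 FPKM, and the mucosal mast cell proteases Mcpt1 and Mcpt2 at 5.49 and 12.9 and at 2.83 and 5.96 FPKM. Kit, which other gut cells also express, was at 6.83 and 5.65 FPKM. Over 11 measured genes the list summed to 16.01 and 25.94 FPKM, and 3 reached 1 FPKM, with 1 lower and 2 higher than in the wild-type library. The part of mast cells in the Tph1 values was not tested. The 4 enteric glia genes summed to 4.36 and 2.85 FPKM.

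Markers of other crypt cells gave the frame for these values. Each of the 8 stem cell and 8 Paneth cell genes listed was below the wild-type level, with medians of -0.65 and -0.81. The 9 stromal genes were all above it, with a median of 1.82. Goblet cell genes were above it in 6 of 7, with a median of 0.65. Among the stem cell genes 2 were at least 2-fold lower, Olfm4 with a log2 ratio of -1.36 and Lgr5 with -1.12, so Olfm4 lay as low as Ghrl. The granin median of -0.72 lay between the stem and Paneth cell medians.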

How the data were processed

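Each library gave 1 table of FPKM values per gene, which the authors deposited with 2 decimals, per the file headers. Reads were single-end, 50 bp long, from a BGISEQ-500, averaging 59 (in units of 1000000) per sample, per the labels' protocols. The submitters' processing notes name HISAT, Bowtie2, RSEM and mm10, without versions or roles. Neither the annotation nor whether strand was counted is given in the sources used here. FPKM is relative to the whole library, so a large gain in 1 group of genes lowers the others.

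Both tables were joined on Entrez identifiers. Of 17840, 17795 matched RefSeq's GRCm38.p6 gene table, the same assembly as mm10, which gave coordinates. With 1 library per genotype no test was run, and no paired analysis was possible. Differences are log2 ratios after a pseudocount of 1 FPKM, which understates changes of low genes. A gene was called at 2-fold on these log2 ratios, in every list, with the larger value at 1 FPKM or more. Single-gene folds use the plain FPKM values.

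Depth was estimated from 214 and 230 genes with 1 GENCODE M21 transcript under 1500 nucleotides. A step of 0.0585 FPKM kb per read left 70.6% and 72.6% of low values within 0.2 of a whole read. The estimate is approximate. Reads of a member used its shortest RefSeq-linked coding transcript. A longer transcript would give more reads and narrower intervals. The 95% intervals are exact binomial for ratios and exact Poisson for levels.

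Named genes were all members, and of each list those past 2-fold and up to 6 of the most abundant, with a few others at or near 0 or cited for contrast that were chosen after their values were seen. Some listed genes are not reported here. Members and lists were chosen with earlier results of these data known. The protein sequences were not used here. The promoter of Pyy was added after its values were seen. The 2-fold rule was tried on simulated data with planted changes larger than 2-fold and counting noise only. That trial cannot judge calls near 2-fold or the spread between mice. Python 3.11.15, pandas 2.3.3, numpy 2.4.6, scipy 1.17.1 and matplotlib 3.10.9 were used.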

Additional observations from a re-analysis of the deposited data

How the results depend on the processing

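Pseudocounts of 0.1 and 5 FPKM, other filters on low values and 3 library-wide scalings (upper quartile, median, and a common sum of 1000000) left Gip and Ghrl as the 2 members at least 2-fold lower and 0 higher. Under these settings the proximal median log2 ratio ranged from -1.03 to -0.89 and the distal one from 0.10 to 0.23. Under a 3-fold rule 0 members were lower. Rescaling to the granin median gave 0 lower, 1 higher (Pyy), a proximal median of -0.20 and a distal one of 0.90, since all values shift together. The difference between the medians lay between -1.20 and -0.99 under every setting tried, granins included, but scalings and filters leave it nearly fixed by construction. Of 80 member values under alternatives, 71 moved by less than their counting error, and the other 9 all came from the granin scale. Most of the 71 could hardly move, because the filters do not enter a log2 ratio. The upper quartile, median and common sum scalings shift plain log2 ratios by only -0.019, 0.016 and 0.085. Over all genes, 49 were lower and 308 higher. These became 110 and 656 with a pseudocount of 0.1 FPKM, 23 and 108 with 5 FPKM, 16 and 99 under the 3-fold rule, and 17 and 2466 on the granin scale. The higher count was 472 after rescaling to a sum of 1000000 and 194 with a minimum of 5 FPKM. No paired analysis was possible because each genotype had 1 library. By the estimated reads, depth limits Tph1 most, at about 40 and 25 reads. These rest on its shortest transcript and would rise with a longer one.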
